A study of Rattus norvegicus with 4 samples.

Results

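Liver RNA of transgenic rats was compared with liver RNA of wild-type rats, both on a diet without luteolin, a plant flavonoid. The array labelled transgenic and the array labelled wild type, 1 array a side, were chosen by those labels, and 14762 of the 20088 genes on the array were above background on both and could be compared. The transgenic rats were Sprague-Dawley rats carrying a dominant negative form of connexin 32, and the wild-type rats were of the same strain. Both groups, and so both arrays, had received diethylnitrosamine, a liver carcinogen, by intraperitoneal injection at an age of 10 weeks, followed by 12 weeks on a diet deficient in methionine and choline. No rat of this comparison was free of carcinogen or diet, so the ratios say nothing about healthy liver. The other 2 of the 4 arrays in the study came from transgenic and wild-type rats that also received luteolin, and they are used here only beside the main values. The promoter that drives the transgene, the carcinogen dose, the sex of the rats and whether 1 or several livers went into an array are not stated by the labels. With 1 array per group there is no replicate check, so genes are described as higher or lower in the transgenic liver with no p-value, and a ratio cannot be assigned to the genotype rather than to the liver or the array that was taken.

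Connexin 32, encoded by Gjb1, and connexin 26, encoded by Gjb2, form the gap junctions through which neighbouring hepatocytes exchange ions and small metabolites. A dominant negative connexin assembles with the normal protein and blocks the channel, so its effect need not appear in connexin RNA. Diethylnitrosamine is activated in pericentral hepatocytes to a DNA-alkylating agent, and a diet without methionine and choline limits phosphatidylcholine synthesis and lipoprotein export, so that fat, inflammatory cells and scar matrix build up. The liver also switches between fed and fasted states: glucagon, cAMP and glucocorticoids turn on glucose production and fat burning, while insulin turns on glycogen and fat synthesis.

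Levels are given as the authors' globally normalized intensity, which sets the median of every array at 25 and is called the scaled intensity below. The log2 ratio of transgenic over wild type comes from a second scale, in which an offset of 50 was added and the arrays were quantile normalized. It therefore differs from the ratio of the scaled intensities. For dim genes it is smaller in size, and for some bright genes slightly larger. In the brightest 20% of genes the median log2 ratio of the scaled intensities was -0.03 for transgenic over wild type without luteolin but -0.47 with it, so scaled levels of bright genes can be set side by side here, whereas on the luteolin arrays the normalized ratio must be read. The background-subtracted signal lay under 50 units on both arrays for 52.8% of the compared genes. Over all 14762 genes the median log2 ratio was -0.005, the central 95% ran from -0.31 to 0.33, and 47.0% lay above 0. In the 20% of genes with the lowest signal the central 95% ran only from -0.06 to 0.07, and in the 20% with the highest from -0.46 to 0.48. The offset shrinks the ratios of dim genes, so these could hardly reach a fold threshold. In log2 ratios of the authors' background-subtracted values the order was reversed. There the central 95% ran from -0.6 to 1.68 at the lowest signal and from -0.17 to 0.87 at the highest.

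At 2-fold or more, 19 genes were higher in the transgenic liver (0.129% of those compared) and 7 were lower (0.0474%). At 1.5-fold or more, 101 were higher (0.684%) and 57 lower (0.386%). Among these the named genes were 93 and 50, the rest having only provisional names. The split between higher and lower depended on the scaling: with each array centred on its median the 1.5-fold counts were 157 and 32, and with the authors' background-subtracted values, quantile normalized without an offset, the 2-fold counts were 223 and 42. In comparison, the 2 luteolin arrays differed 2-fold or more in 15 genes on the higher and 9 on the lower side of 14423. Correlations of log2 intensity across 14220 probes described how alike the arrays were: r was 0.9948 between the transgenic and wild-type arrays, 0.9931 between the transgenic array and its luteolin counterpart, 0.9903 between the transgenic and the wild-type luteolin array, the lowest of the 6 pairs, and 0.9965 between the wild-type and the transgenic luteolin array, the highest.

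**Figure D1:**
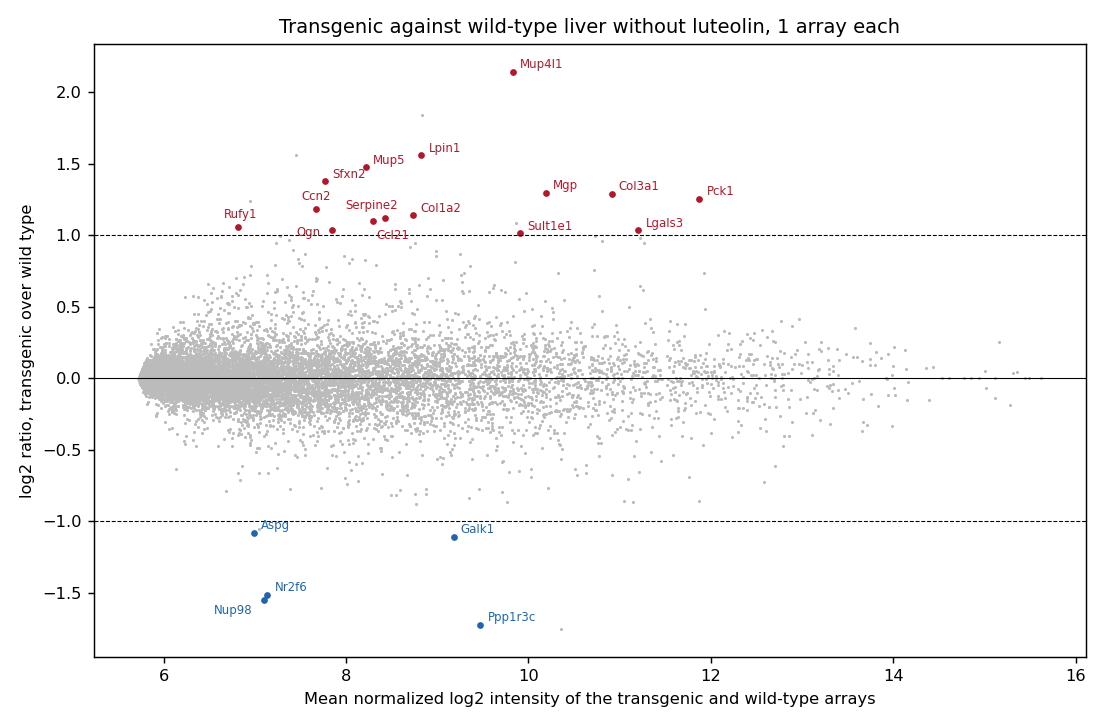
Each point is 1 of 14762 genes, plotted by its mean normalized log2 intensity on the transgenic and wild-type arrays (horizontal) and its log2 ratio of transgenic over wild type (vertical), with 1 array each; dashed lines mark 2-fold. The named genes past 2-fold are labelled, from Mup4l1 at 2.14 to Ppp1r3c at -1.72, and the spread is narrow at low intensity.

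The tissue label fitted the marker genes. Albumin (Alb) had a scaled intensity of 36437 on the transgenic array and 35050 on the wild-type array, and transthyretin (Ttr) 31210 and 34640, among the brightest genes of both. All 35 hepatocyte markers on the array were above background in both livers. Of the skeletal muscle genes, which a liver should lack, Myh4, Myh2, Ckm and Tnnt3 were above background in neither liver, while Acta1 and Actn3 were dim, at 7.88 against 5.46 and 1.73 against 1.38.

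Gjb1 was measured at 790.0 scaled units in the transgenic and 1033 in the wild-type liver, a log2 ratio of -0.34. With luteolin the normalized ratio was 0.02, at scaled levels of 884 and 1232 that carry the general shift of bright genes on those arrays. Because the sources used here do not say whether the probe also reads the transgene, Gjb1 does not check the genotype labels. Its partner Gjb2 was lower in both diets. It was at 486 against 654 without luteolin (log2 ratio -0.38) and at 442 against 835 with it (-0.41). Gja1, which encodes connexin 43 of stellate, endothelial and mesothelial cells, was higher at 217 against 137 (0.55). The vascular connexins Gja5 and Gja4 had ratios of 0.26 and 0.17 at scaled levels of 26.2 against 13.8 and 53.4 against 41.5. Gjb6 and Panx2 were dim, at 1.44 against 1.01 and 7.02 against 6.21 scaled units, both with a ratio of 0.01, while Gjd2 and Panx1 were above background on neither array and Gjb5 and Gja3 only on the transgenic one. Of 9 connexins and pannexins compared, 7 were higher and 2 lower, and none reached 1.5-fold. The hepatocyte connexins and the connexin of non-parenchymal cells therefore lay on opposite sides of 0. In bulk liver, fewer cells of a type and less RNA per cell cannot be told apart, here and for every cell-type gene below.

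Other junction genes of hepatocytes did not move as a block: of 19 compared, 8 were higher and 11 lower, with a median of -0.04 and none past 1.5-fold. The tight junction protein Cldn1 had the lowest ratio, -0.55, at 75.3 against 129 scaled units, and it was lower in the luteolin pair as well (-0.59). E-cadherin (Cdh1), which holds hepatocytes together, was at 777 against 1028 (-0.36). Epcam, an adhesion protein of bile duct and progenitor cells, and desmoplakin (Dsp) of the desmosome had ratios of 0.36 and 0.31.

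The highest ratios of the whole comparison belonged to major urinary proteins, small lipid-binding carriers that male rat hepatocytes secrete under growth hormone and androgen control. Mup4l1 was at 1443 scaled units in the transgenic and 305 in the wild-type liver, a log2 ratio of 2.14. Mup5 was at 346 and 100.3, a ratio of 1.48. With luteolin both lay the other way round: Mup4l1 was at 542 in the transgenic and 2738 in the wild-type liver (-1.77), and Mup5 at 212 and 656 (-1.02). The order from lowest to highest was thus the same for both genes, namely wild type, transgenic with luteolin, transgenic, and wild type with luteolin. The file described 3 further unnamed probes that were past 2-fold as alpha-2u globulins, another name for these proteins, with ratios of 1.84, 1.56 and 1.24 without luteolin and -1.55, -1.23 and -0.64 with it. These 5 of the 19 genes past 2-fold belong to 1 multigene family with near-identical sequence, so their probes may read each other's RNA and cannot be counted as separate observations.

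The sequences just before the start sites of Mup4l1 and Mup5 are shown because these 2 had the highest ratios among the named genes of their family. They also had the same order over the 4 arrays. Both are RefSeq sequences of assembly GRCr8, 150 bases before the annotated start, written 5′ to 3′ on the minus strand of chromosome 5, with the TATA box letters in capitals.
Mup4l1, chr5:80226535-80226684: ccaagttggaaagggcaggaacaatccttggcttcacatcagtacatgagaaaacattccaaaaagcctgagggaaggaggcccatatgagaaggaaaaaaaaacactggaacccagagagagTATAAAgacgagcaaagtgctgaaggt
Mup5, chr5:79999696-79999845: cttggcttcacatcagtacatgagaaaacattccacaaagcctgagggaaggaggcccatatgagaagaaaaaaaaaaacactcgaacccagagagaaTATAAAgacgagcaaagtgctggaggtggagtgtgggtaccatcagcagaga
In a local alignment the 2 windows shared 119 of 124 aligned bases (96.0%) with 1 gap. The letters TATAAA began 27 bases before the annotated start of Mup4l1 and 52 before that of Mup5, and TATAAA or TATATA on either strand was found in 10.02% of 33469 rat promoters in windows of this length.

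The list of male-predominant genes that holds Mup4l1 and Mup5 was divided without luteolin. Of 17 compared, 8 were higher and 9 lower, with a median of -0.02 (3 of 17 higher and -0.22 in the luteolin pair). The 4 past 1.5-fold were Mup4l1, Mup5, Sult1e1 and Pbsn, all higher, against 0.684% of all genes on that side. Oestrogen sulphotransferase (Sult1e1), which inactivates oestrogens, was at 1006 against 493 (1.01), and probasin (Pbsn), a lipocalin like the urinary proteins, at 169 against 87.7 (0.69). Both lay below 0 in the luteolin pair, at -0.49 and -0.09. Among genes higher in female rat liver, 3 of 14 were higher and 11 lower, with a median of -0.14. The transcriptional cofactor Trim24 was lowest (-0.66) and the hydroxyacid oxidase Hao2 highest (0.47). Genes of growth hormone signalling were divided, with 9 of 21 higher, and the hormone's main product Igf1 was at 3896 against 3394 (0.24). The repressor Bcl6, itself a target of growth hormone pulses, was at 60.9 against 97.3 without luteolin (-0.46) and 33.2 against 216 with it (-1.51).

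The fasting genes Pck1, G6pc1 and Igfbp1 were higher in the transgenic liver, and the glycogen scaffolds Ppp1r3c and Ppp1r3b were lower. Pck1, the enzyme that commits oxaloacetate to gluconeogenesis, was at 4482 scaled units in the transgenic and 1894 in the wild-type liver, a log2 ratio of 1.25. Glucose-6-phosphatase (G6pc1), which releases free glucose, was at 1632 and 989.8 (0.76). Igfbp1, a secreted binding protein that insulin represses, was at 3818 and 2320 (0.74). All 3 are switched on in the fasted liver, and all 3 were higher on the transgenic array by at least 1.5-fold. With luteolin, Pck1 and Igfbp1 were again higher, with ratios of 0.41 and 0.51, and G6pc1 was not (-0.26). Pyruvate carboxylase (Pc), another enzyme of gluconeogenesis, was lower without luteolin, at 329 against 493 (-0.51). The enzymes of glucose production therefore did not all lie on 1 side.

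The Pck1 promoter is printed because this gene had the highest level among those past 2-fold and because its cAMP response element is a known switch of the fasting response. The sequence is RefSeq's for GRCr8, plus strand, 150 bases before the annotated start, 5′ to 3′, with the element in capitals.
Pck1, chr3:182348422-182348571: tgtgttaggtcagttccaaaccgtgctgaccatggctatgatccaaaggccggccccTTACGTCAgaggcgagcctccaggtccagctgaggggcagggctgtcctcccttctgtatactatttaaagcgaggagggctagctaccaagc
The letters TTACGTCA began 93 bases before the start, and on either strand they were found in 0.63% of the 33469 promoters. Their presence describes the sequence and does not say what bound there in these livers.

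On the storage side, Ppp1r3c, a scaffold that brings protein phosphatase to glycogen and activates glycogen synthase, had the lowest ratio of any named gene. It was at 266 scaled units in the transgenic and 987 in the wild-type liver, a log2 ratio of -1.72. A second such scaffold of the liver, Ppp1r3b, was at 176 and 341 (-0.82). Outside glycogen storage, Igfbp2, which like Igfbp1 binds insulin-like growth factors, went the opposite way from Igfbp1, at 458 and 838 (-0.79). In the luteolin pair Ppp1r3c was lower as well (-0.56), whereas Ppp1r3b and Igfbp2 were near 0 (0.10 and 0.14). The probe for the liver glycogen synthase Gys2 was near background, at 1.42 and 1.69 scaled units, and gives no information. Over the whole list of gluconeogenic and glycogen genes 27 of 62 were higher and 35 lower, with a median of -0.02, so the differences sat in a few regulated genes.

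Among the enzymes of sugar breakdown, galactokinase (Galk1), the first enzyme of galactose use, was at 269 against 633 (-1.11). The lactate and ketone carrier Slc16a1 was at 604 against 993 (-0.64). Isoenzymes that are more typical of non-hepatocytes lay the other way, with ratios of 0.42 for Pkm, 0.37 for Pfkp and 0.36 for the glucose carrier Slc2a1. As a list, glycolysis and fructose genes were balanced, with 19 higher and 19 lower.

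Several of the higher genes are textbook targets of glucocorticoids, and a list of 28 such genes was therefore written after these values had been seen, so its count describes a choice and supports nothing. Of 26 compared, 20 were higher and 6 lower, with a median of 0.41 against -0.005 over all genes. Past 1.5-fold were 7, all higher, against 0.684% of all genes on that side. These 7 were Lpin1, Pck1, Sult1e1, Tsc22d3, Dusp1, G6pc1 and Igfbp1. The lowest ratio of the list was -0.4. Tsc22d3, the anti-inflammatory protein GILZ, was at 404 against 202 (0.92). Dusp1, a phosphatase that switches off MAP kinases, was at 590.0 against 316 (0.87) and was also higher with luteolin (0.62). The clock and glucocorticoid target Per1 was at 40.4 against 12.8 (0.57), with Per2 at 0.53. Fkbp5, another classical target, was close to even at 0.13. Mt2A and Sgk1, also known targets, were lower, at 1784 against 2441 (-0.405) and 155 against 211 (-0.37). Serpina6, which encodes the plasma carrier of corticosteroids and is not a member of that list, was at 1781 against 917 (0.99). The time of day and the feeding state at sampling are not stated by the labels, and among 25 clock genes 12 were higher and 13 lower.

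**Figure D2:**
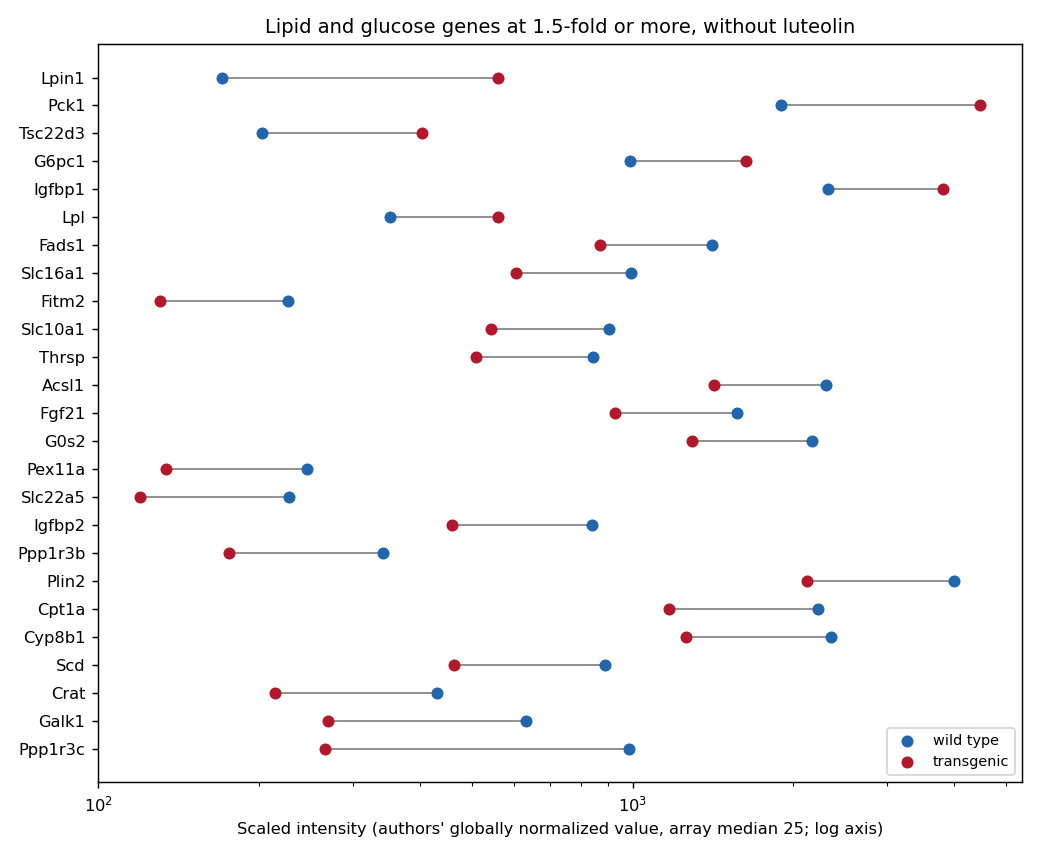
Scaled intensity on the wild-type array (blue) and the transgenic array (red) for the members of the lipid and glucose lists reported here that differed 1.5-fold or more, on a log axis, with 1 array each. Of those plotted, 6 genes were higher in the transgenic liver, from Lpl to Lpin1, and 19 were lower.

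Lipid genes were mostly lower in the transgenic liver. Of 60 genes of the carnitine shuttle and fatty acid oxidation, 49 were lower and 11 higher, with a median of -0.14, and 6 were past 1.5-fold, all lower, against 0.386% of all genes on that side. With median centring the list's median was -0.10, against -0.04 for all genes. Cpt1a, the gate through which long-chain fatty acids enter mitochondria, was at 1169 scaled units against 2226 (-0.86). Carnitine acetyltransferase (Crat) was at 214 against 430.1 (-0.88), and the carnitine importer Slc22a5 at 119.7 against 227 (-0.74). These 3 genes serve the same carnitine system. The acyl-CoA synthetase Acsl1 had a ratio of -0.66 and the peroxisome division factor Pex11a one of -0.72. Fgf21, a hormone that the liver releases during fasting and amino acid shortage, was at 927 against 1571 (-0.66). Cpt1a, Crat, Acsl1 and Pex11a were lower with luteolin too, with ratios of -0.80, -0.76, -0.46 and -0.46, while Fgf21 was higher there (1.18). The receptor that drives many of these genes, Ppara, was itself dim, at 31.0 against 25.4 (0.09). Not all its usual targets differed: Pdk4 had a ratio of 0.07, Cyp4a1 -0.08 and Acadm 0.02.

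Fat synthesis and storage followed the same side. Among 32 lipogenic genes 25 were lower and 7 higher (median -0.15), and among 35 genes of triglyceride synthesis and lipid droplets 29 were lower and 6 higher (median -0.17). With median centring the medians were -0.09 and -0.10. The stearoyl-CoA desaturase Scd was at 464 against 889 (-0.87), the lipogenic regulator Thrsp at 509 against 844 (-0.66) and the desaturase Fads1 at 868 against 1411 (-0.63). Plin2, the main coat protein of lipid droplets in fatty liver, was at 2122 against 3998 (-0.86). G0s2, an inhibitor of fat breakdown, Fitm2, which helps droplets form, and Dgat2, which makes triglyceride, had ratios of -0.70, -0.64 and -0.54. A single gene past 1.5-fold stood against the rest of its list. Lipin 1 (Lpin1), a phosphatidate phosphatase that fasting and glucocorticoids induce, was at 559.5 scaled units in the transgenic and 170.1 in the wild-type liver, a log2 ratio of 1.56. With luteolin it was at 270.3 and 169 (0.94), so both transgenic arrays were above both wild-type arrays. Scd2, a desaturase form of non-hepatocytes, was also higher (0.51).

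Sterol and bile acid genes included a few with larger ratios. Of 34 cholesterol genes 23 were lower (median -0.14), with the synthesis enzyme Tm7sf2 at 198 against 308 (-0.55) and the enzymes Hmgcs1 and Sqle at -0.51 and -0.49. Among 31 bile acid genes 20 were lower (median -0.10, or -0.02 with median centring). Cyp8b1, the 12-alpha-hydroxylase that sets the share of cholic acid, was at 1260 against 2354 (-0.87), and the bile acid importer Slc10a1 at 544 against 904 (-0.65). In contrast, Cyp7a1, the rate-limiting enzyme of bile acid synthesis, was at 603 against 428 (0.51), and it lay the other way with luteolin (-0.99). Apolipoprotein and lipoprotein genes were lower in 23 of 30 (median -0.13, or -0.02 with median centring), all by less than 1.5-fold. The single member past 1.5-fold was lipoprotein lipase (Lpl), which macrophages make, at 561 against 351 (0.67).

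Genes of the extracellular matrix were mostly higher in the transgenic liver. Of 17 collagens compared, 16 were higher and 1 lower, with a median of 0.33, and 6 were past 1.5-fold against 0.684% of all genes. Type III collagen (Col3a1), a fibrillar collagen of early scar, was at 2305 scaled units in the transgenic and 945 in the wild-type liver (1.29). The chains of type I collagen, the bulk of mature scar, were at 455 against 189 for Col1a2 (1.14) and 135 against 46.2 for Col1a1 (0.99). The microfibrillar Col6a1 and Col6a2 had ratios of 0.89 and 0.64, and the basement membrane chain Col4a1 0.80. Summed over the 17 collagens, the scaled intensity was 4737 in the transgenic and 2543 in the wild-type liver.

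Of noncollagenous matrix genes 36 of 44 were higher (median 0.20), and 9 were past 1.5-fold on that side against 0.684% of all genes. Even so, the summed scaled level of the list, 12917 against 12468, was nearly even. Matrix Gla protein (Mgp), an inhibitor of calcification, was at 1366 against 554 (1.30), and osteoglycin (Ogn), a small proteoglycan, at 221 against 86.9 (1.03). The crosslinking oxidase Loxl1 was at 144 against 52.7 (0.96), with its relative Lox at 0.57. Collagen folding and decoration were represented by the chaperone Serpinh1, at 429 against 209 (0.94), and the lysyl hydroxylase Plod2 (0.60). The basement membrane linker Nid1, the microfibril protein Fbn1, decorin (Dcn) and the collagen-binding protein Sparc had ratios of 0.84, 0.81, 0.68 and 0.59. Proteases and their inhibitors were less one-sided in size, with 23 of 28 higher, 4 lower and a median of 0.08. The protease inhibitor Serpine2 was at 357 against 146 (1.12), the macrophage elastase Mmp12 at 321 against 198 (0.62), and the inhibitors Timp1 and Timp2 at 0.54 and 0.54.

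Of the growth factor pathway that drives scarring, TGF-beta, a single target stood out. Connective tissue growth factor (Ccn2) was at 203 scaled units against 66.1 (1.19). The list as a whole was even, with 16 of 28 higher, 12 lower and a median of 0.02. The binding protein Ltbp1 and the ligand Tgfb3 had ratios of 0.59 and 0.45, and the ligand Tgfb1 was dim at 15.3 against 8.33 (0.16). Id1 and Id2, targets of the related BMP signals, were lower, at 212 against 321 (-0.52) and 868 against 1462 (-0.67), as was the hepatic activin chain Inhbe (-0.52).

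Cell-type markers moved beside the matrix genes, and their part in the matrix result was not tested. Of 19 stellate cell and myofibroblast markers compared, 14 were higher and 5 lower, with a median of 0.10 and a summed scaled level of 2736 against 2150. Among the higher markers 3 were past 1.5-fold, against 0.684% of all genes. The endothelin receptor Ednrb was at 268 against 137 (0.83), the actin-binding protein Tagln at 168 against 85.8 (0.70) and the stellate globin Cygb at 141 against 77.8 (0.61). Vimentin (Vim) and the growth factor receptor Pdgfrb both had a ratio of 0.57. However, the defining myofibroblast genes Acta2 and Cnn1, and Tpm2, Hand2 and Gfap, were above background on neither array, so those probes say nothing, and desmin (Des) was at 25.6 against 17.3 (0.16). Endothelial markers were higher in 13 of 16 with a median of 0.07 and none past 1.5-fold, and their summed level was 1264 against 1105. The mesothelial gene Msln was at 120.1 against 57.5 (0.69).

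Macrophage genes were mostly higher. Over 21 general macrophage and Kupffer cell markers, 17 were higher (median 0.09), 3 of them past 1.5-fold, against 0.684% of all genes. Lysozyme (Lyz2) was at 2555 against 1389 (0.94), the MHC class II chaperone Cd74 at 2292 against 1502 (0.65) and the lysosomal protein Cd68 at 578 against 380.5 (0.61). Of markers of resident Kupffer cells, Clec4f, Cd163 and Timd4 had ratios of -0.11, -0.08 and -0.05, and Vsig4 0.18. In the list for lipid-associated and scar macrophages, which in other livers gather around fat-laden cells and scar, 16 of 20 were higher with a median of 0.33. Galectin 3 (Lgals3) was at 2506 against 1277 (1.03), Gpnmb at 2496 against 1322 (0.98), and the lipid receptor Trem2 at 124 against 72.8 (0.51). Cd9 and Cd63, tetraspanins of these cells, had ratios of 0.62 and 0.49. The list's only member past 1.5-fold on the lower side was Plin2, which hepatocytes express at high level. The summed scaled level over the list was 51536 against 50176, a sum that bright genes made by other cells can dominate.

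Lymphocyte and granulocyte genes were dim and near even. T and NK cell markers were higher in 19 of 21, but with a median of 0.06 and a largest ratio of 0.22 for Nkg7. Over the settings tried their median ranged from -0.03, with median centring, to 0.56, with the authors' globally normalized values. Cd3e was above background on neither array. B and plasma cell markers were higher in 5 of 11, and neutrophil and mast cell markers in 9 of 13 with a median of 0.02. Haemoglobin genes, a gauge of blood in the sample, were lower in the transgenic liver, with ratios of -0.42 for Hbb-b1, -0.41 for Hba-a2 and -0.26 for Hbb-bs, whose probes can share sequence.

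Inflammatory signals did not form a common pattern. Among 47 cytokine, chemokine and NF-kB genes 34 were higher with a median of 0.05. The lymphoid chemokine Ccl21 was at 320.1 against 129.5 (1.10), the membrane-bound chemokine Cx3cl1 at 80.5 against 31.6 (0.71), and the monocyte attractant Ccl2 at 99.1 against 58.2 (0.49). Of interferon-stimulated genes 22 of 31 were lower, with a median of -0.07 (-0.02 with median centring). The GTPase Irgm was at 57.1 against 108 (-0.62), and the interferon-gamma-induced chemokines Cxcl9, Cxcl11 and Cxcl10 had ratios of -0.45, -0.44 and -0.39. MHC and antigen presentation genes were higher in 14 of 23, with a median of 0.04. Among class II genes RT1-DMb, RT1-DMa and RT1-Bb had ratios of 0.53, 0.42 and 0.36, and among class I genes RT1-N3, RT1-CE5 and RT1-CE16 had ratios of -0.31, -0.26 and 0.26. Acute phase proteins were higher in 11 of 29 and complement and coagulation factors in 15 of 36, with none past 1.5-fold in either list.

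Bile duct and tumour-associated genes were higher as well. Of 22 cholangiocyte and progenitor markers 19 were higher with a median of 0.15. The tetraspanin Tspan8 was at 187 against 91.9 (0.78) and the progenitor surface protein Prom1 at 111 against 56.0 (0.62). The duct keratins Krt19 and Krt7 were at 109.8 against 78.0 (0.32) and 10.7 against 4.20 (0.17). In the list of liver tumour and foetal genes 26 of 38 were higher and 12 lower, with a median of 0.10, 8 past 1.5-fold on the higher side (0.684% of all genes) and 1, Scd, on the lower (0.386%). Bex1 was at 146 against 59.1 (0.90), the calcium-binding S100a11 at 494 against 261 (0.85) and the membrane-binding annexin Anxa2 at 562 against 339.9 (0.72). The hyaluronan receptor Cd44 had a ratio of 0.60. Another 3 members were looked up by name and not by size. Gstp1, the classical marker of preneoplastic foci in rat liver, was at 3903 against 3520 (0.20), alpha-fetoprotein (Afp) at 514 against 408 (0.36) and the oncofoetal proteoglycan Gpc3 had a ratio of 0.28. None of them reached 1.5-fold between genotypes, although Gstp1 was at 933 and 1170 on the luteolin arrays.

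Cell cycle genes leaned the same way in small steps. Of 61 compared, 56 were higher and 5 lower, with a median of 0.13, and none reached 1.5-fold. The replication clamp Pcna was at 438 against 295 (0.54), the helicase subunit Mcm6 at 77.9 against 48.1 (0.40) and the mitotic kinase Cdk1 at 34.2 against 17.7 (0.33). Most members were dim, where the offset shrinks ratios, and over the settings tried the median ran from 0.11 to 0.46, always above 0. In the luteolin pair 21 of 59 were higher with a median of -0.02. The p53 targets and cycle inhibitors were even, with 14 of 29 higher and Cdkn1a at 0.23, apart from the stress gene Gadd45g at 724 against 453 (0.65).

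Hepatocyte identity genes lay slightly below 0 in the main setting, though not relative to all genes with median centring. Of 35 markers, 24 were lower and 9 higher, with a median of -0.12 (-0.03 with median centring, against -0.04 for all genes). Only 1 of the 35 was past 1.5-fold, on the lower side, against 0.386% of all genes. That gene, Foxa3, a pioneer transcription factor of hepatocytes, was at 61.8 against 135 (-0.78), with its relative Foxa2 at 112 against 179 (-0.53) and the nuclear receptor Hnf4a at -0.21. The summed scaled level of the list was 259255 in the transgenic and 265525 in the wild-type liver. The 2 zonation lists had medians near 0: periportal genes were higher in 10 of 26 (median -0.05) and pericentral genes in 18 of 35 (median 0.00). With median centring these medians were 0.07 and -0.01, against -0.04 for all genes, so that of periportal genes has no settled side. The pericentral enzyme Cyp2e1, which activates diethylnitrosamine, was at 10489 against 8603 (0.35), and the probe for the defining pericentral enzyme Glul was above background on neither array.

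Detoxification genes showed no common shift. Conjugating enzymes and carboxylesterases were lower in 21 of 28 (median -0.16, but -0.05 with median centring, against -0.04 for all genes there). The lowest ratio of the list was that of glycine N-methyltransferase (Gnmt), an enzyme of methyl group disposal, at 496 against 779 (-0.58). The carboxylesterase Ces2a was at 372 against 517 (-0.42), and the glucuronosyltransferase Ugt1a7c had a ratio of -0.385. Sult1e1, on the higher side, was the only gene past 1.5-fold. Cytochromes P450 of the drug-metabolising families were lower in 14 of 26 with a median of -0.04, and Cyp2d3, Cyp2c7 and Cyp2a1 had ratios of -0.44, -0.43 and -0.38. Drug and organic ion transporters were lower in 21 of 29, with a median of -0.07 (-0.04 with median centring). Of these, 2 were past 1.5-fold on the lower side, against 0.386% of all genes. The efflux pump Abcb1b, at 752 against 488 (0.62), was the list's only gene past 1.5-fold on the higher side. Larger ratios were found outside these lists: soluble epoxide hydrolase (Ephx2) was at 242 against 446 (-0.78) and the sulphotransferase Sult1c2a at 238 against 448 (-0.81). Nrf2 antioxidant genes were even, with 21 of 47 higher, Gstm3 at 0.67 and Gclm, which limits glutathione synthesis, at 0.48.

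The diet removes methionine and choline, and the genes that handle them were divided. Among 54 compared, 23 were higher and 31 lower, with a median of -0.02. Methionine adenosyltransferase 2A (Mat2a), the form of dividing and non-hepatic cells, was at 688 against 445 (0.60), and spermidine synthase (Srm) at 1235 against 744 (0.74). Choline kinase alpha (Chka), the first step of phosphatidylcholine synthesis from choline, was at 380.2 against 684 (-0.78). Betaine-homocysteine methyltransferase (Bhmt), which regenerates methionine, was at 4168 against 6407 (-0.61). Gnmt, which disposes of excess methyl groups, and dimethylglycine dehydrogenase (Dmgdh) were also lower (-0.58 and -0.53). Amino acid breakdown was lower in 42 of 61 genes (median -0.10, or -0.02 with median centring). Asparaginase (Aspg) was at 29.0 against 106 (-1.08), and the histidine pathway enzymes Amdhd1, Ftcd and Hal had ratios of -0.66, -0.58 and -0.56.

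Stress response genes showed no common direction, with 25 of 52 higher and 26 lower. The glutathione-degrading Chac1, a target of the amino acid response, was at 21.6 against 66.1 (-0.79) and the transcription factor Atf5 at 1117 against 1642 (-0.45). The heat shock genes Hspb1, Hsp90aa1 and Hsph1 were on the other side, at 0.59, 0.58 and 0.53. Mitochondrial oxidative phosphorylation subunits were lower in 51 of 63, with a median of -0.09 and none past 1.5-fold, but the median turned to 0.02 with each array centred on its median. Ribosomal protein genes were higher in 35 of 50 (median 0.06), proteasome subunits in 14 of 27 (0.01) and common reference genes in 10 of 17 (0.07), and with median centring these medians were 0.22, 0.12 and 0.13, as far from 0 as those of several lists above. Of the reference genes, Actb had a ratio of 0.18 and Gapdh -0.21.

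**Figure D3:**
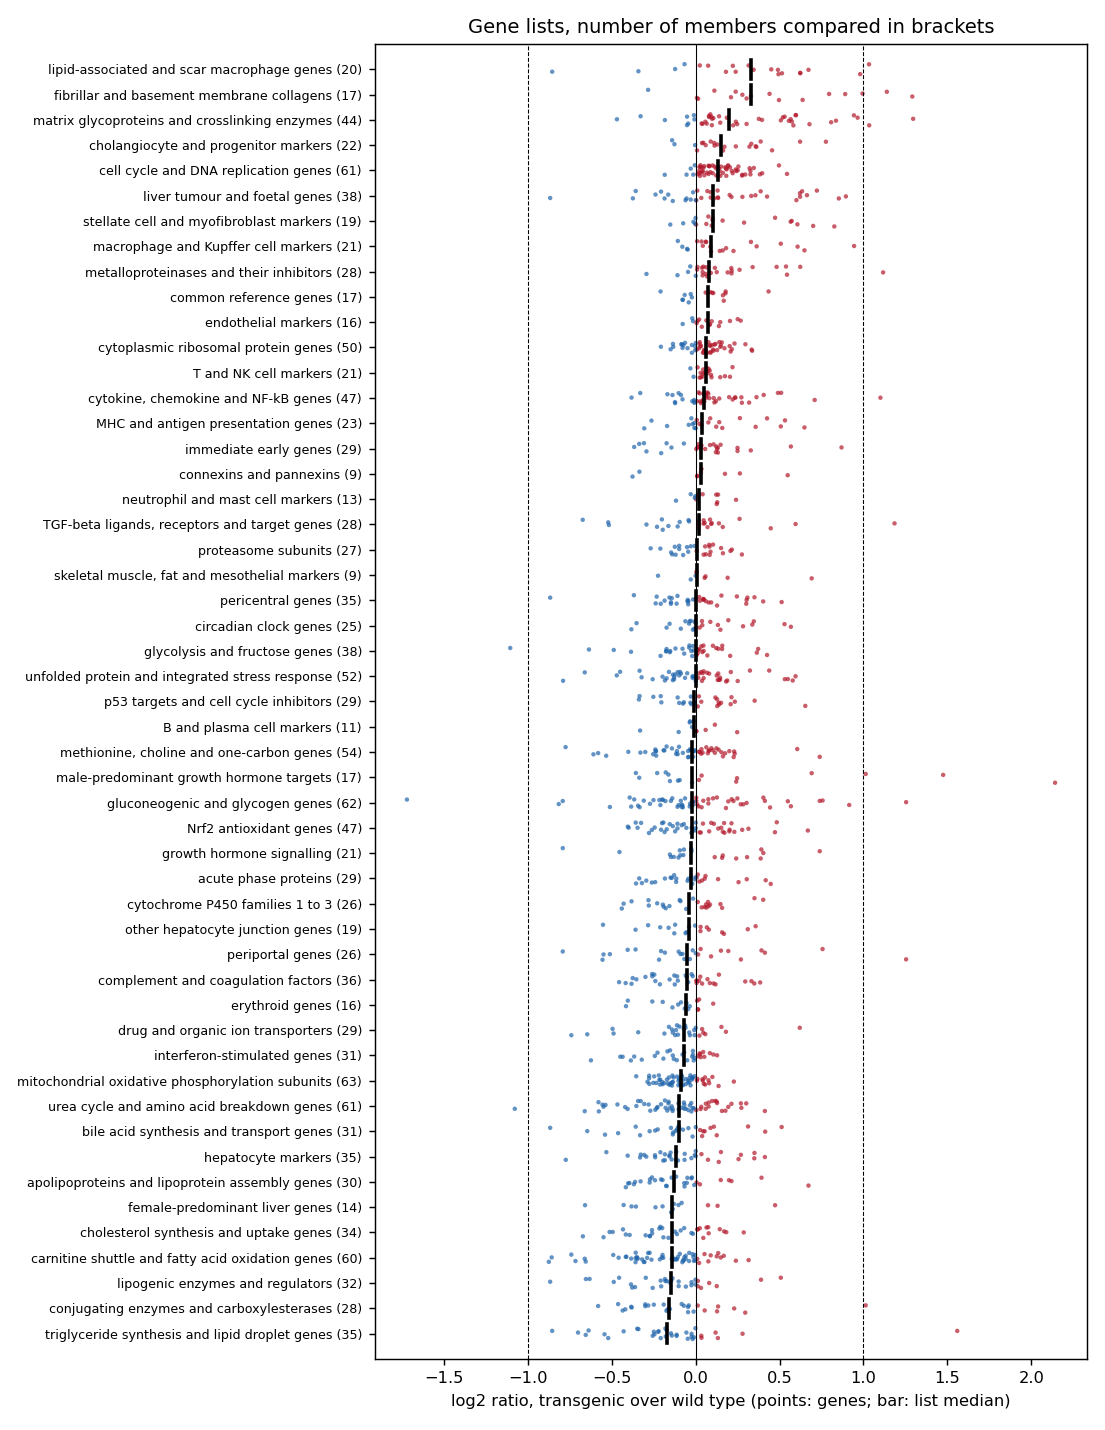
Each row is a gene list, each point a member's log2 ratio of transgenic over wild type without luteolin (red above 0, blue below), and each bar the list median, with the number of members compared in brackets. The list of glucocorticoid targets, written after the values were seen, is not drawn; of those drawn, collagens and lipid-associated macrophage genes have the highest medians (both 0.33) and triglyceride and lipid droplet genes the lowest (-0.17); ribosomal, proteasome and reference gene lists lie between 0.01 and 0.07.

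The remaining genes among the 20 highest and 20 lowest belonged to no common list. Higher were sideroflexin 2 (Sfxn2), a mitochondrial carrier, at 235 against 66.1 (1.38), the endosomal adaptor Rufy1 at 90.2 against 20.3 (1.06), and the secreted Igfbp7 at 1887 against 978 (0.96). Sfxn2 and Sult1e1 sat in the last stretch of the file, from row 20101 on. There 7.3% of only 55 compared probes were past 1.5-fold, against 1.07% overall. Lower were the nuclear pore gene Nup98 at 23.4 against 146 (-1.55) and the orphan receptor Nr2f6 at 25.8 against 148 (-1.51). Their probes occupy neighbouring rows of the file, 3153 and 3154. Of the 7 genes past 2-fold on the lower side, 5 fell between rows 2945 and 3259, namely these, Galk1 and 2 provisional genes, and Mup4l1 and another urinary protein probe lie there too. A stretch of 400 rows there, 1.98% of the file, held 7 of the 26 genes past 2-fold, although its median ratio was 0.01. Without that stretch, chosen after seeing the values, 17 genes were higher and 2 lower at 2-fold. Neither labels nor files say whether file order follows the position on the array, and the part of position in these ratios was not tested.

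Hepatic regulators were also among the 20 lowest. Hemojuvelin (Hjv), the co-receptor that sets hepcidin, was at 342 against 652 (-0.84) and pantothenate kinase 1 (Pank1), which starts coenzyme A synthesis, at 184 against 356 (-0.82). The amino acid and GABA carrier Slc6a13 was at 90.2 against 180.2 (-0.77). Hjv and Chac1 were lower in the luteolin pair by more than 1.5-fold too, with ratios of -0.60 and -0.63.

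On all 4 arrays together, the named genes past 2-fold formed a few patterns. They were chosen for a 2-fold gap between the transgenic and wild-type arrays, which favours these 2 arrays as brightest or dimmest. The counts and gaps below are shaped by that choice and are only descriptive. Of the 15 that were higher, 12 were brightest on the transgenic array without luteolin, and the other 3, Mup4l1, Mup5 and Rufy1, on the wild-type luteolin array. For Serpine2, the other 3 arrays lay within 0.05 on the log2 scale and the transgenic array 1.12 above them. Lgals3 showed the same picture, with the others within 0.27 and a gap of 1.03, and so did Col3a1, with values of 0.33 and 1.24. For Sfxn2 it was the wild-type array that stood apart, 1.01 below the other 3, which lay within 0.37, and for Rufy1 likewise, 1.06 below a range of 0.25. All 5 lower genes were dimmest on the transgenic array without luteolin. Galk1, Nr2f6 and Nup98 were at nearly the same level on the other 3 arrays, within 0.07, 0.13 and 0.19, and 1.03, 1.40 and 1.55 lower on the transgenic one.

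**Figure D4:**
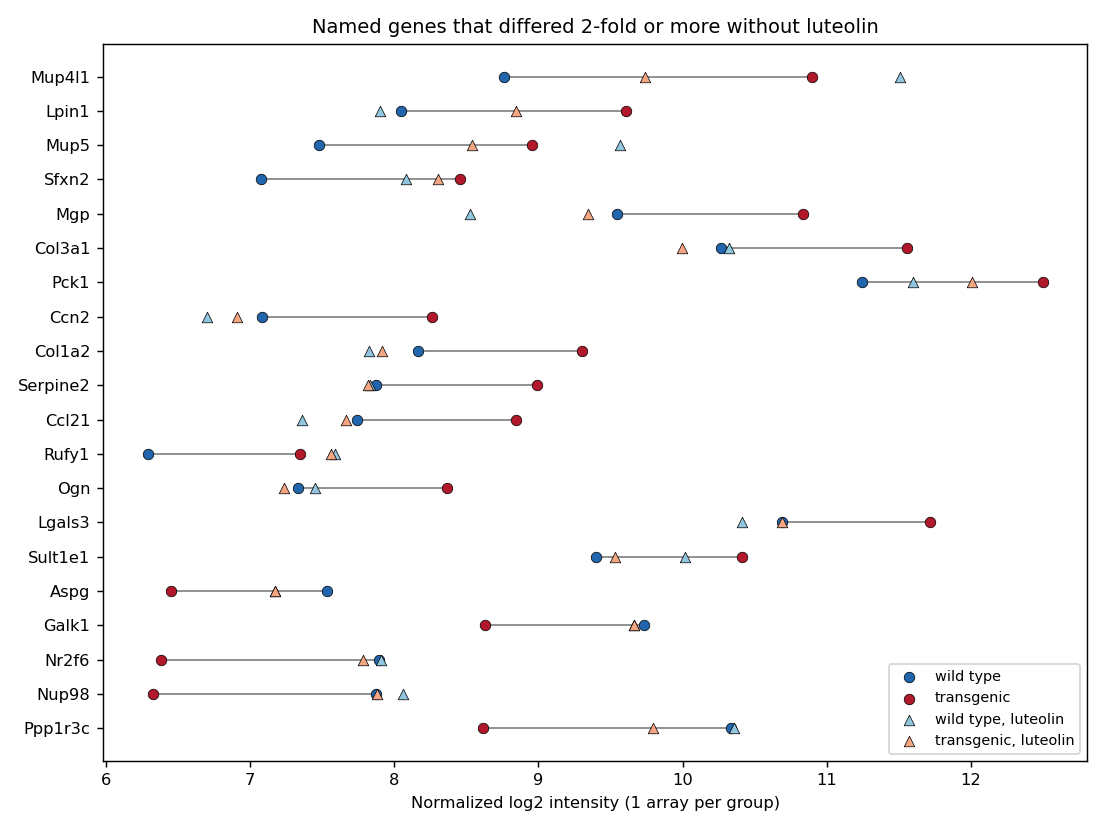
Normalized log2 intensity of the 20 named genes that differed 2-fold or more, on each of the 4 arrays (circles without luteolin, triangles with luteolin; 1 array per group), with a line joining the pair compared. For Col3a1, Serpine2, Lgals3 and Ogn the transgenic array lies above 3 arrays that are close together, while for Mup4l1 and Mup5 the wild-type luteolin array is brightest.

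The same genotype contrast with luteolin shares no array with the one described here, which makes it the nearest thing to a second look, on another diet. Across 14164 genes the correlation of the 2 sets of ratios was r = 0.12, and genes are not independent replicates. Of the 101 genes higher at 1.5-fold without luteolin, 74 (73.3%) were above 0 with it, against 51.2% of all genes, 7 (6.93%) were again 1.5-fold higher, against 0.438%, and 5 (4.95%) were 1.5-fold lower, against 0.452%. Of the 57 lower genes, 43 (75.4%) were below 0, against 48.8%, 9 (15.8%) were 1.5-fold lower, against 0.452%, and 3 (5.26%) were 1.5-fold higher, against 0.438%. Of the 19 genes that were 2-fold higher, 9 (47.4%) were above 0 with luteolin, 2 were 1.5-fold higher and 5 (26.3%), the urinary protein probes, 1.5-fold lower. All 7 genes that were 2-fold lower were below 0. The median of the higher genes was 0.72 without luteolin and 0.18 with it, and that of the lower genes -0.71 and -0.18. Because the genes were chosen by their size without luteolin, smaller values in the other pair follow from that choice. They say nothing about the diets.

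The named genes on the same side at 1.5-fold in both diets were few. Higher in both were Lpin1, Mgp, Lyz2, Dusp1 and Gadd45g, with luteolin ratios of 0.94, 0.82, 0.60, 0.62 and 0.81. Lower in both were Cpt1a, Crat, Hjv, Chac1, the acyl-CoA thioesterase Acot5, the mitochondrial unfoldase Clpx and the phosphate carrier Slc34a2. Acot5 was at 119.9 against 219 without luteolin (-0.70) and had a ratio of -0.91 with it. Clpx had ratios of -0.61 and -0.75, and Slc34a2 -0.63 and -0.69. List medians went in several ways. That of collagens went from 0.33 to 0.03, that of lipid-associated macrophage genes from 0.33 to 0.12 and that of fatty acid oxidation genes from -0.14 to -0.06. Oxidative phosphorylation was at -0.09 in both diets, while MHC genes went from 0.04 to 0.20, Nrf2 genes from -0.02 to 0.10, complement and coagulation factors from -0.05 to -0.15 and male-predominant genes from -0.02 to -0.22. Col3a1, past 2-fold without luteolin, had a ratio of -0.33 with it.

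**Figure D5:**
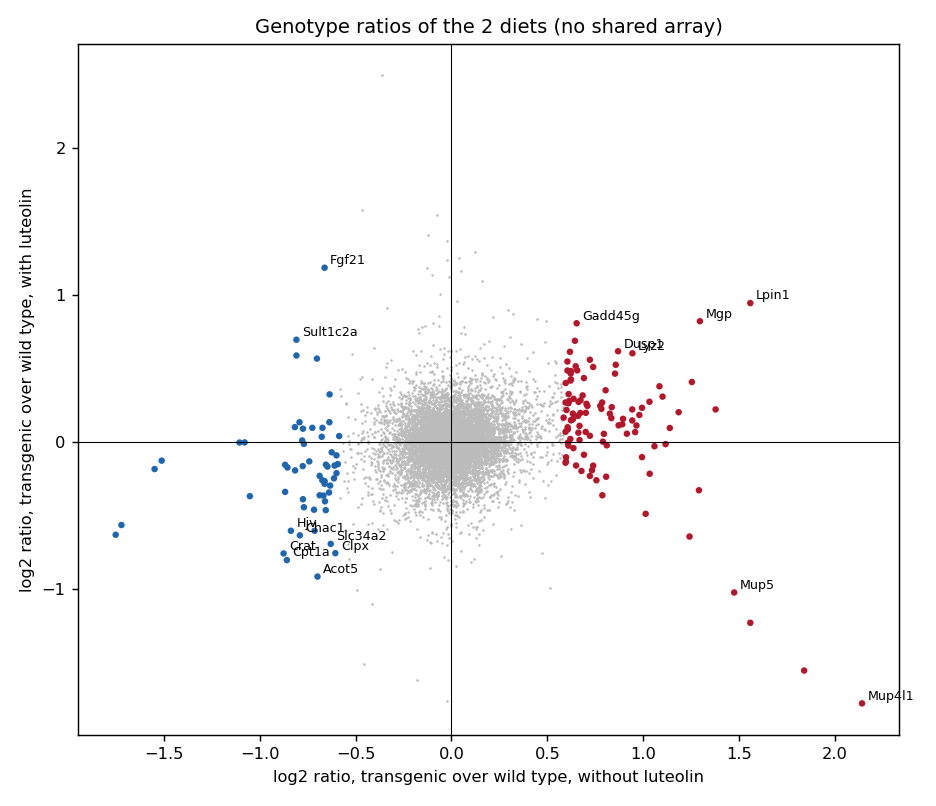
Log2 ratio of transgenic over wild type without luteolin (horizontal) and with luteolin (vertical) for each gene measured on all 4 arrays; red and blue points passed 1.5-fold without luteolin, and named genes passed it in both diets. Most coloured points lie nearer 0 on the vertical axis, which follows from choosing them on the horizontal one. Mup4l1, Mup5, Fgf21 and Sult1c2a lie on opposite sides of 0 in the 2 diets.

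Cellular components given in the files set the directions apart. Of the 74 annotated genes that were 1.5-fold or more higher, 44.6% were listed as extracellular, against 8.8% of all 8659 annotated genes and 7.9% of the 38 annotated lower genes. Mitochondrial genes made up 15.8% of the lower, 6.8% of all and 2.7% of the higher genes. Peroxisomal genes were 4 of the 38 lower genes (10.5%) and 0.7% of all, and endoplasmic reticulum genes 15.8% and 4.5%. These shares describe lists chosen by size of ratio, which favours bright genes.

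Genes seen on 1 array of the pair were all near background. There were 777 above background only on the transgenic array and 506 only on the wild-type array, and 4043 on neither. The largest bound was at least 1.23-fold higher in the transgenic liver, for the crystallin gene Crygn, and on the other side at least 1.20-fold, for Tsbp1, which is a bound against the faintest signal counted as above background. Every such bound was under the 1.5-fold used for the counts.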

How the data were processed

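Amplified liver RNA carried the dye Cy5 on arrays of 1 colour, per the labels' protocols. Per the file headers, the deposited columns held raw, background-subtracted and globally normalized intensity for every probe. Subtraction by the authors took 1 constant per array from the raw intensity (39.8 on the transgenic and 37.5 on the wild-type array), and global normalization then applied 1 factor per array (0.696 and 0.892), as a comparison of the columns showed. The scanner, software, probe sequences and genome build were not given in the sources used here.

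Raw intensities and the constant were corrected with limma's normexp (limma 3.58.1, R 4.3.3; offset 50), taken to log2 and quantile normalized over the 4 arrays. Probes with a background-subtracted value on both arrays were kept (14822 of 20174), the brightest probe stood for a gene, and the difference of the 2 arrays was the log2 ratio. Probes were named through the RefSeq gene table of GRCr8, by accession (10691 curated, 78 other, 54 settled by the symbol), Entrez identifier (3105), symbol (1501) or synonym (206), with the name in the file retained for 2511, no name for 1990 and conflicting names, left out, for 38. Named genes were the 20 highest and 20 lowest non-provisional ratios, up to 8 members per list by size, every connexin, near-background members that define a list, and genes named for their role as said in the text. The 51 gene lists, 1 list added after the values were seen, and the comparison itself were chosen with earlier results of these data known. A few genes are counted in their lists but not reported here by name. No p-value was computed, since each group has 1 array. Normalization was tested on simulated arrays with planted ratios.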

Additional observations from a re-analysis of the deposited data

Results flagged for a closer look

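Named genes that were past 1.5-fold on opposite sides of 0 in the 2 diets are listed here. The difference between the diets was not tested, since each ratio rests on 1 array a side. Mup4l1 had a log2 ratio of 2.14 without luteolin and -1.77 with it, and Mup5 of 1.48 and -1.02; their probes belong to 1 family with near-identical sequence. Fgf21 had a ratio of -0.66 without luteolin and 1.18 with it. Sult1c2a had a ratio of -0.81 and 0.70.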

How the results depend on the processing

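No named gene past 1.5-fold changed sign under the alternatives tried, but counts of genes changed with the scale. With an offset of 16 in place of 50, 37 genes were 2-fold higher, and 198 and 102 were 1.5-fold higher and lower. The authors' background-subtracted values, quantile normalized, gave 223 and 42 at 2-fold and 1008 and 319 at 1.5-fold, and their globally normalized values 387 and 97, and 1285 and 537. Centring on the median gave 157 and 32 at 1.5-fold, and 12 named genes on the lower side, among them Fgf21, Slc10a1 and Thrsp, then lay under that size. With 50 units or more required on both arrays, 3 genes were 2-fold lower, and without the stretch of 400 file rows, an alternative chosen after seeing the data, 2. The other settings (quantile normalization over 2 arrays, no filter, the mean over probes, a running median over file rows, a block of rows left out) kept all 4 counts within 1.5 times. Over the settings the collagen median ran from 0.31 to 0.91, that of fatty acid oxidation from -0.22 to -0.10 and that of lipid droplet genes from -0.28 to -0.10, while medians near 0 such as that of connexins (-0.34 to 0.52) have no settled side. No paired analysis was possible because each group has 1 array. Dim signal limits the rest: the offset that steadies dim genes also shrinks their ratios.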
